A study of Mus musculus with 8 samples.

Results

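The nuclear genes for mitochondrial ribosomal proteins were examined in mouse embryonic stem cells with a Prmt5 knockout (iPKO) and in their iPHet controls. Members were the genes whose symbol in the files is Mrps or Mrpl followed by a number and, in some, a letter from a to d, and whose mean was at least 1 FPKM in either genotype. FPKM, fragments scaled to transcript length and sequencing depth, is the deposited unit. Of 76 matching symbols 75 passed, 28 named for the small subunit (Mrps) and 47 for the large subunit (Mrpl), out of 12462 genes that passed the same filter. The gene that did not pass was Mrps23, a small subunit protein found in mitochondria and not in bacteria, with 0.304, 0.464, 0.167 and 0.508 FPKM in iPKO libraries 1 to 4, against 0.051, 0.272, 0.0329 and 0.0303 FPKM in iPHet libraries 1 to 4.

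The series compared 4 libraries of iPKO cells, the Prmt5 knockout, with 4 libraries of iPHet cells, its control. The label iPHet reads as heterozygous for Prmt5 and not as wild type. PRMT5 is an enzyme that methylates arginines of Sm proteins, histones and other proteins. The cells were C57BL/6 embryonic stem cells taken from E3.5 blastocysts, derived on embryonic fibroblasts (MEFs) and held in 2i ground state culture at passages under 20, and cells of both genotypes had received 2 µM 4-hydroxytamoxifen for 48 hours. The male line PC4 (iPKO) and the male line PC1 (iPHet) are named for most experiments, so genotype and line cannot be told apart. Nothing in the labels ties the 4 libraries of a genotype to independent cultures, and each p-value here therefore reflects library-to-library spread that could be technical.

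The mitochondrial ribosome translates the few proteins that the mitochondrial genome itself encodes, which are membrane subunits of the respiratory chain and of the ATP synthase. Its ribosomal RNAs come from the mitochondrial genome, while every one of its proteins is encoded in the nucleus, made in the cytosol and imported. The small subunit binds the mRNA and reads its codons, and the large subunit joins the amino acids and releases the growing chain through an exit tunnel to the inner membrane. Besides proteins inherited from a bacterial ancestor, the mitochondrial particle holds further proteins that bacteria lack. Nuclear genes for mitochondrial proteins often have promoters with short sites for ETS-family factors such as GABP, for NRF1 and for YY1.

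Promoter stretches of 3 members are shown because these genes stand for the patterns described further on: Mrps21 was lower in all iPKO libraries, Mrpl52 had its difference mainly in libraries 1 and 3, and Mrpl43 had opposite differences in libraries 1 and 3 and in libraries 2 and 4. Each is the 120 bases before the RefSeq start of the gene, read along the gene's strand from the GRCm38.p6 assembly. They lie at chr3:95871515-95871634 on the minus strand for Mrps21, at chr14:54426789-54426908 on the plus strand for Mrpl52 and at chr19:45006443-45006562 on the minus strand for Mrpl43. Capitals mark a match to the ETS letters CCGGAAG or to the NRF1 letters, GCGCA and GCGC with any base between them, on either strand.
Mrps21: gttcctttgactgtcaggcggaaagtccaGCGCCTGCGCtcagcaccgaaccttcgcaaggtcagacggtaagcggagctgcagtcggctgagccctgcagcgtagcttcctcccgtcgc
Mrpl52: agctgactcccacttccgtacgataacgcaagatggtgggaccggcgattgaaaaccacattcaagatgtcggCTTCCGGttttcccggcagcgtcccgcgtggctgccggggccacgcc
Mrpl43: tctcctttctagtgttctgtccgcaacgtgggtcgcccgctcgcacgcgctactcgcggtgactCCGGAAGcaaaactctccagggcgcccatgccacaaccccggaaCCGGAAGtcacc
The NRF1 match of Mrps21 began 91 bases before the start, the ETS match of Mrpl52 began 47 bases before it, and the ETS matches of Mrpl43 began 56 and 12 bases before it. The window of Mrps21 also held the ETS letters, outside the stretch shown.

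Over whole promoter windows, from 250 bases before to 50 bases after the start, 66 of the 75 members had a RefSeq entry. The ETS letters stood in 34.8% of these members, against 21.3% of the 8701 tested genes with a window and 9.93% of all 27025 genes with one. The NRF1 letters stood in 18.2% of members, against 12.1% of tested genes. The YY1 letters AANATGGCG stood in 15.2% of members, against 6.54% of tested genes, and the GC box letters GGGCGG stood in 33 of 66 members, against 71.0% of tested genes. At least 1 of the ETS, NRF1 and YY1 letters, which can overlap each other in a window, stood in 59.1% of members and in 34.8% of tested genes. It stood in 56.0% of 25 small subunit members and in 61.0% of 41 large subunit members. Among members that fell in iPKO cells 5 of 10 had such a match, and among members that were not called 34 of 56 had one. A match is a description of letters and not a measured binding site.

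As a check of the labels, Prmt5 had 11.8, 14.5, 12.4 and 15 FPKM in iPKO libraries 1 to 4, against 52.8, 70.8, 54.3 and 72.2 FPKM in iPHet libraries 1 to 4. The iPKO mean was 21.5% of the iPHet mean, so Prmt5 RNA was lowered and not absent. The files hold no counts, so absolute depth is unknown, and relative depth ran from 0.756 in iPHet 3 to 1.24 in iPKO 1, taking iPHet 1 as 1. Within each genotype, libraries 1 and 3 stood apart from libraries 2 and 4. The variance between a library from the first pair and a library from the second was 14.1 to 20.8 times that implied by the authors' confidence bounds, against 1.56 to 2.12 times within a pair. Between libraries of different genotypes it was 13.8 to 27.9 times, a range that overlaps that of the split. The labels give no batch, and what separates the pairs was not tested. The main counts of members and the changes of many single genes are therefore also given within libraries 1 and 3 and within libraries 2 and 4. All 10 embryonic stem cell markers passed the filter, with Sox2 called lower (log2 change -0.38, limma adjusted p = 0.00539). Their summed iPKO level differed from the iPHet level by -22.5% in libraries 1 and 3 and by 15.8% in libraries 2 and 4. Much of that sum was Dppa5a, at 1430 FPKM in iPKO and 1530 FPKM in iPHet cells. Its log2 change was -0.53 in the first pair and 0.53 in the second. The median log2 change of the 10 markers was -0.25 in libraries 1 and 3, where 7 were called lower and 1 higher. It was -0.10 in libraries 2 and 4, where 3 were called lower and 1 higher. Over all tested genes 27.3% were called lower and 18% higher in the first pair, against 22.5% and 17.7% in the second. The part of these marker differences in the members' values was not tested. The 8 feeder fibroblast markers summed to 5.09 to 6.19 FPKM in iPKO libraries and 3.68 to 5.34 FPKM in iPHet libraries, with Thy1, Fbln2 and Pdgfrb past the filter and not called, Postn at 0 in all libraries and Col3a1 at means of 0.00127 and 0.00354 FPKM in iPKO and iPHet cells.

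Members were expressed at middling levels. The small subunit genes ran from 2.98 FPKM for Mrps36 to 123 FPKM for Mrps5 as means over all 8 libraries, with a median of 17.4 FPKM. The large subunit genes ran from 4.84 FPKM for Mrpl35 to 65 FPKM for Mrpl28, with a median of 23.1 FPKM. Over 10 FPKM stood 21 of 28 small and 40 of 47 large subunit genes. The order of members by level was alike in every library, with Spearman correlations across the 75 genes between any 2 libraries of 0.927 to 0.99, and since the genes share libraries and transcript lengths this is a description only.

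In iPKO cells 12 of the 75 genes fell and none rose. A gene was called where limma, fitted to log2(FPKM + 1) of all 12462 genes and all 8 libraries, gave a Benjamini-Hochberg adjusted p under 0.05. By that rule 3 of 28 small subunit genes and 9 of 47 large subunit genes fell, which is 10.7% and 19.1%, against 15.8% of all tested genes called, 9.53% lower and 6.3% higher. The median log2 change was -0.16 in the small subunit and -0.16 in the large subunit, against -0.04 over all tested genes. Below 0 were 21 small and 35 large subunit genes, or 75% and 74.5%, against 56.6% of all tested genes. Unadjusted p was under 0.05 for 28 of the 75 members and for 3921 of the 12462 tested genes. In bulk samples, fewer cells of a type and less RNA per cell cannot be told apart. When the libraries of a pair were averaged to 1 value, 0 members and 7 of all genes were called, so the 12 calls rest on treating all 8 libraries as separate. With any 1 of the 8 libraries left out, 2 to 6 large and 3 small subunit genes were called lower. Median-of-ratios scaling between libraries left 6 of the 12 calls, with 6.93% of all tested genes lower (863) and 7.7% higher (960), against 1188 lower and 785 higher as deposited.

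**Figure D1:**
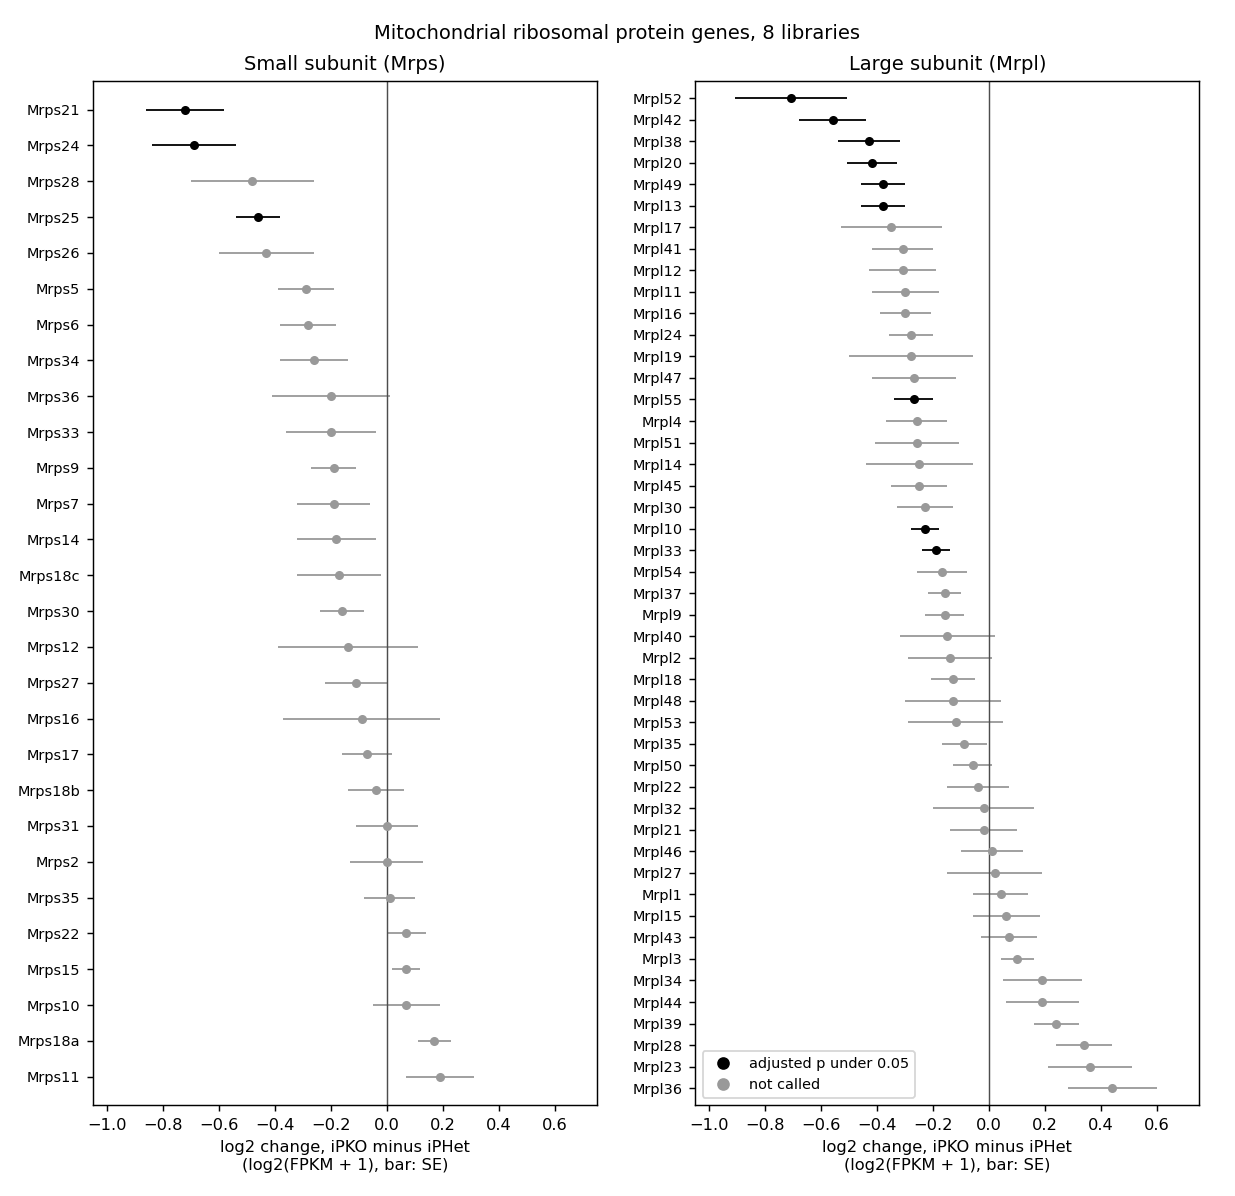
Each point is the log2 change of 1 gene on the log2(FPKM + 1) scale, iPKO minus iPHet, with its standard error, for 28 small (left) and 47 large (right) subunit genes. Black points are the 3 small and 9 large subunit genes with an adjusted p under 0.05, all of them below 0, while the points above 0 reach 0.44 for Mrpl36 and none of those is black.

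Among small subunit genes Mrps21, the counterpart of bacterial S21, showed the lowest iPKO level relative to iPHet. It had 7.64, 6.57, 8.53 and 6.22 FPKM in iPKO libraries 1 to 4, against 12.3, 9.95, 15.1 and 13.3 FPKM in iPHet libraries 1 to 4. The highest iPKO library was below the lowest iPHet library, and the iPKO mean was 57.2% of the iPHet mean. The log2 change was -0.72 ± 0.14 (SE, n = 4 each, limma adjusted p = 0.0111). It was of like size in both pairs of libraries, -0.69 in libraries 1 and 3 and -0.76 in libraries 2 and 4.

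Mrps25, a mitochondria-specific protein of the small subunit, had 10.7, 9.67, 9.68 and 10.7 FPKM in iPKO libraries 1 to 4, against 16.2, 15.3, 13.5 and 12.8 FPKM in iPHet libraries 1 to 4. The genotypes did not overlap, and iPKO libraries were closer to each other than iPHet libraries were. The log2 change was -0.46 ± 0.08 (SE, limma adjusted p = 0.0105), with -0.50 in libraries 1 and 3 and -0.42 in libraries 2 and 4. Its locus overlaps that of Nr2c2, and Mrps24's overlaps that of Urgcp, so reads there may be shared.

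Mrps24, the counterpart of bacterial S3 at the site where mRNA enters the small subunit, had 12.4, 17.2, 12.4 and 15.7 FPKM in iPKO libraries 1 to 4, against 26.6, 19.3, 27.9 and 22.1 FPKM in iPHet libraries 1 to 4. The groups did not overlap, but the gap was wide in libraries 1 and 3 and narrow in libraries 2 and 4. Over all libraries the log2 change was -0.69 ± 0.15 (SE, limma adjusted p = 0.0168). It was -1.07 in libraries 1 and 3 and -0.31 in libraries 2 and 4 (interaction, the difference between these, -0.76 ± 0.10, limma adjusted p = 0.00451). The split into pairs was taken from these data, so this p-value describes these libraries only. Mrps21, Mrps24 and Mrps25 were called with any 1 of the 8 libraries left out. In the files' mm10 coordinates they lie at chr3:95862634-95871519 (Mrps21), chr11:5703983-5715680 (Mrps24) and chr6:92169525-92184033 (Mrps25).

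Of the small subunit genes that were not called, Mrps28 and Mrps26 had the largest differences. Mrps28, the counterpart of bacterial S1, had 5.39, 9.26, 7.03 and 9.31 FPKM in iPKO libraries 1 to 4, against 13.8, 7.66, 13.9 and 9.82 FPKM in iPHet libraries 1 to 4. Its groups overlapped through libraries 2 and 4 (log2 change -0.48 ± 0.22, SE, limma adjusted p = 0.178). Mrps26, a mitochondria-specific protein, averaged 4.34 ± 0.704 FPKM in iPKO cells and 6.28 ± 1.67 FPKM in iPHet cells (SD, n = 4 each, limma adjusted p = 0.127). Its log2 change was -0.84 in libraries 1 and 3 and -0.01 in libraries 2 and 4.

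Mrps5, the counterpart of bacterial S5, was the most abundant member, with 112, 117, 106 and 105 FPKM in iPKO libraries 1 to 4, against 123, 155, 119 and 146 FPKM in iPHet libraries 1 to 4. All iPKO libraries were below all iPHet libraries, with the wider gap in libraries 2 and 4. Its log2 change was -0.29 ± 0.10 (SE, limma adjusted p = 0.0718), and with the replicate number as a block the adjusted p was 0.0408. Mrps15, the counterpart of bacterial S15, averaged 41.9 ± 1.57 FPKM in iPKO cells and 39.9 ± 1.58 FPKM in iPHet cells (SD, n = 4 each, limma adjusted p = 0.445).

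In the large subunit the lowest iPKO levels relative to iPHet were in Mrpl52 and Mrpl42, both mitochondria-specific. Mrpl52, a protein of the central protuberance that faces the small subunit, had 9.2, 16.7, 10.8 and 14.7 FPKM in iPKO libraries 1 to 4, against 26.3, 17.8, 23.9 and 18 FPKM in iPHet libraries 1 to 4. The groups did not overlap, though iPKO 2 and iPHet 2 nearly met. Its log2 change was -0.71 ± 0.20 (SE, limma adjusted p = 0.0483), and the adjusted p was 0.0997 with the replicate number as a block. The change was -1.25 in libraries 1 and 3 and -0.18 in libraries 2 and 4 (interaction -1.07 ± 0.13, limma adjusted p = 0.00325).

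Mrpl42 had 23.1, 27.5, 21.9 and 26.3 FPKM in iPKO libraries 1 to 4, against 43.4, 34.2, 40.0 and 30.2 FPKM in iPHet libraries 1 to 4. No iPKO library reached the lowest iPHet library (log2 change -0.56 ± 0.12, SE, limma adjusted p = 0.0207), and the call was lost without iPKO 1, without iPKO 3 and without iPHet 3. Mrpl38, another protein of the central protuberance, had 23.9, 29.2, 28.0 and 35.3 FPKM in iPKO libraries 1 to 4, against 39.6, 41.6, 35.7 and 40.5 FPKM in iPHet libraries 1 to 4. The highest iPKO library lay just below the lowest iPHet library (log2 change -0.43 ± 0.11, SE, limma adjusted p = 0.0376). When the 8 libraries were left out in turn, the call of Mrpl38 held in 1 of the 8 fits, as did those of Mrpl52 and of Mrpl55, the counterpart of bacterial L31. The call of Mrpl33, the counterpart of bacterial L33, held in none of them. Mrpl55 also had an adjusted p of 0.0515 with the replicate block.

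Mrpl20, the counterpart of bacterial L20, had 35.2, 41.0, 34.1 and 41.2 FPKM in iPKO libraries 1 to 4, against 50.6, 51.4, 56.0 and 45.2 FPKM in iPHet libraries 1 to 4. Every iPKO library was below every iPHet library (log2 change -0.42 ± 0.09, SE, limma adjusted p = 0.0193). With single libraries left out in turn, the call was lost without iPKO 1 and held in the other 7 fits. Mrpl13, the counterpart of bacterial L13, had 17.1, 19.5, 16.2 and 16.8 FPKM in iPKO libraries 1 to 4, against 22.5, 24.2, 24.5 and 20.8 FPKM in iPHet libraries 1 to 4. Its groups did not overlap, and its call held with any 1 library left out (log2 change -0.38 ± 0.08, SE, limma adjusted p = 0.0154).

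Mrpl49, a mitochondria-specific protein, averaged 21.6 ± 2.36 FPKM in iPKO cells and 28.2 ± 1.26 FPKM in iPHet cells (SD, n = 4 each, log2 change -0.38, limma adjusted p = 0.0197). Its log2 change was -0.46 in libraries 1 and 3 and -0.29 in libraries 2 and 4, and its call held with 5 of the 8 libraries left out in turn. The smaller falls were those of Mrpl55 (log2 change -0.27), of Mrpl10 (-0.23), the base of the stalk that binds translation factors, and of Mrpl33 (-0.19). The call of Mrpl10 held with 4 of the 8 libraries left out in turn. Mrpl13 overlaps the locus of Mtbp, Mrpl49 that of Syvn1, Mrpl10 that of Gm11574, and Mrpl33 those of Bre and Rbks, so their values may hold shared reads.

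Mrpl28, the counterpart of bacterial L28 and the most abundant large subunit gene, had higher iPKO values without being called. It had 61.0, 81.6, 67.3 and 82.0 FPKM in iPKO libraries 1 to 4, against 58.8, 54.0, 58.3 and 56.6 FPKM in iPHet libraries 1 to 4. All iPKO libraries were above all iPHet libraries, by little in libraries 1 and 3 and by more in libraries 2 and 4. The log2 change was 0.34 ± 0.10 (SE, limma adjusted p = 0.0569), and it was called under quantile normalization and under median-of-ratios scaling.

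Mrpl36, the counterpart of bacterial L36, had the largest difference of the large subunit genes that were not called. It had 25.7, 34.7, 26.2 and 36.3 FPKM in iPKO libraries 1 to 4, against 25.5, 19.1, 26.4 and 18.6 FPKM in iPHet libraries 1 to 4. Libraries 1 and 3 of both genotypes were alike, and only libraries 2 and 4 stood apart (log2 change 0.44 ± 0.16, SE, limma adjusted p = 0.101). Mrpl23, a protein at the exit tunnel, averaged 13.1 ± 2.26 FPKM in iPKO cells and 10 ± 1.69 FPKM in iPHet cells (SD, n = 4 each, limma adjusted p = 0.139). Its log2 change was 0.01 in libraries 1 and 3 and 0.70 in libraries 2 and 4. A pseudogene of Mrpl23 also has a row in the files, and reads between the 2 may be split.

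**Figure D2:**
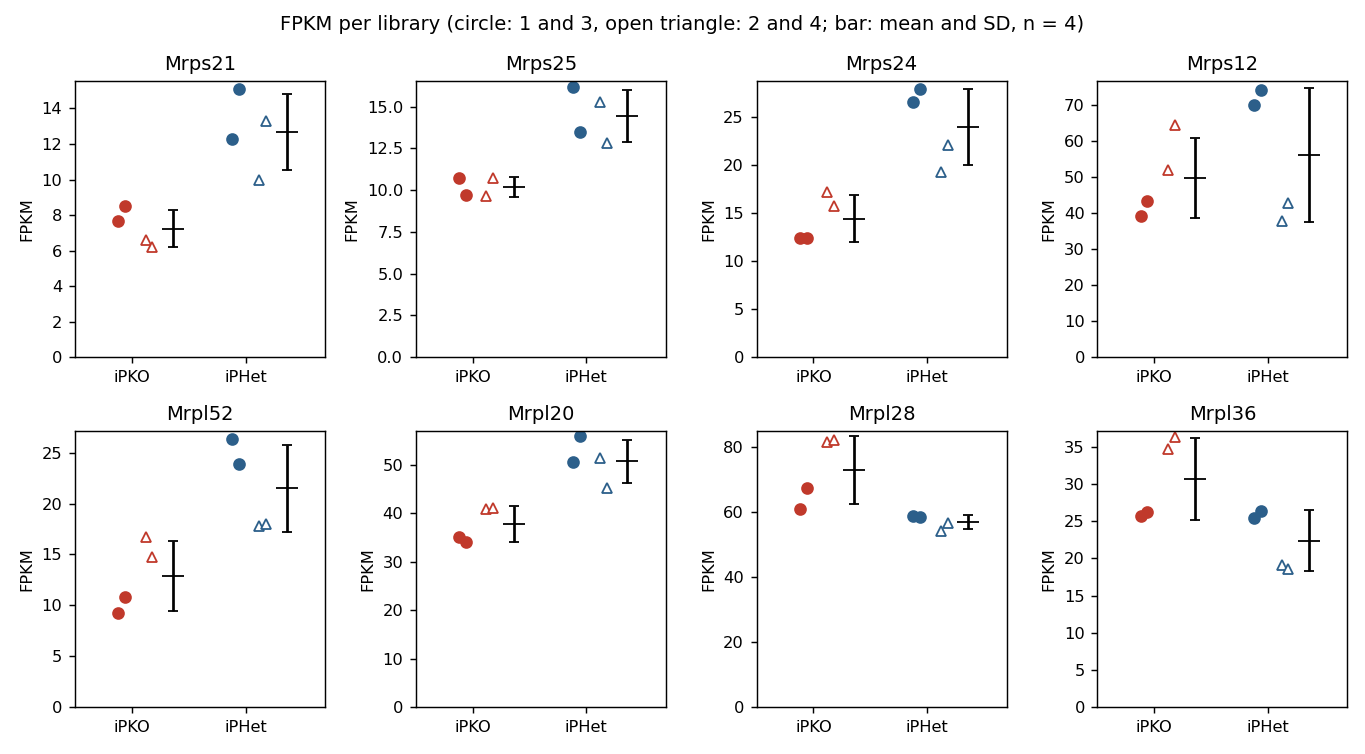
FPKM of 8 members in every library, iPKO left and iPHet right, with circles for libraries 1 and 3, open triangles for libraries 2 and 4 and bars for the mean and SD of 4 libraries. Mrps21, Mrps25 and Mrpl20 separate the genotypes in both pairs, Mrps24 and Mrpl52 do so widely only in libraries 1 and 3, Mrps12 has its iPKO circles below and its iPKO triangles above those of iPHet, and Mrpl36 differs in the triangles.

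Across all members, groups did not overlap in 15 genes with iPKO lower (4 small and 11 large subunit genes) and in 3 with iPKO higher (Mrps18a, Mrpl28 and Mrpl39, named after their values were seen). Over all tested genes 15% did not overlap with iPKO lower and 10.1% with iPKO higher. All 12 genes that fell were among the 15.

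The sums of both subunits followed the same pattern across libraries. The small subunit genes summed to 575, 669, 578 and 660 FPKM in iPKO libraries 1 to 4, against 730, 652, 735 and 656 FPKM in iPHet libraries 1 to 4. The large subunit genes summed to 1038, 1239, 1048 and 1264 FPKM in iPKO libraries 1 to 4, against 1310, 1203, 1333 and 1186 FPKM in iPHet libraries 1 to 4. Both sums were lowest in iPKO 1 and 3 and highest in iPHet 1 and 3, with libraries 2 and 4 of both genotypes in between. In libraries 1 and 3 the iPKO sums differed from the iPHet sums by -21.3% (small) and -21.0% (large), and in libraries 2 and 4 by 1.62% (small) and 4.76% (large).

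The ratio of the small to the large sum hardly varied. It was 0.554, 0.540, 0.551 and 0.522 in iPKO libraries 1 to 4, against 0.557, 0.542, 0.551 and 0.553 in iPHet libraries 1 to 4. It averaged 0.542 ± 0.0144 in iPKO cells and 0.551 ± 0.00662 in iPHet cells (SD, n = 4 each), a difference smaller than the iPKO spread. The median FPKM of the genes differed more by subunit. In libraries 1 and 3 the small subunit median averaged 13.3 in iPKO and 21.2 in iPHet cells (-37.1%). The large subunit median there averaged 19.3 and 24.4 (-21.1%). In libraries 2 and 4 the iPKO medians differed from the iPHet medians by 2.87% (small) and 12% (large). FPKM totals over all genes also differed between libraries, at 411827 to 417539 in iPKO libraries, against 458856 and 458690 in iPHet 1 and 3 and 417672 and 421412 in iPHet 2 and 4. As a share of these totals the members made up 0.392%, 0.459%, 0.394% and 0.461% in iPKO libraries 1 to 4, against 0.445%, 0.444%, 0.451% and 0.437% in iPHet libraries 1 to 4. On that scale iPKO 1 and 3 were below every iPHet library and iPKO 2 and 4 were above every one.

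**Figure D3:**
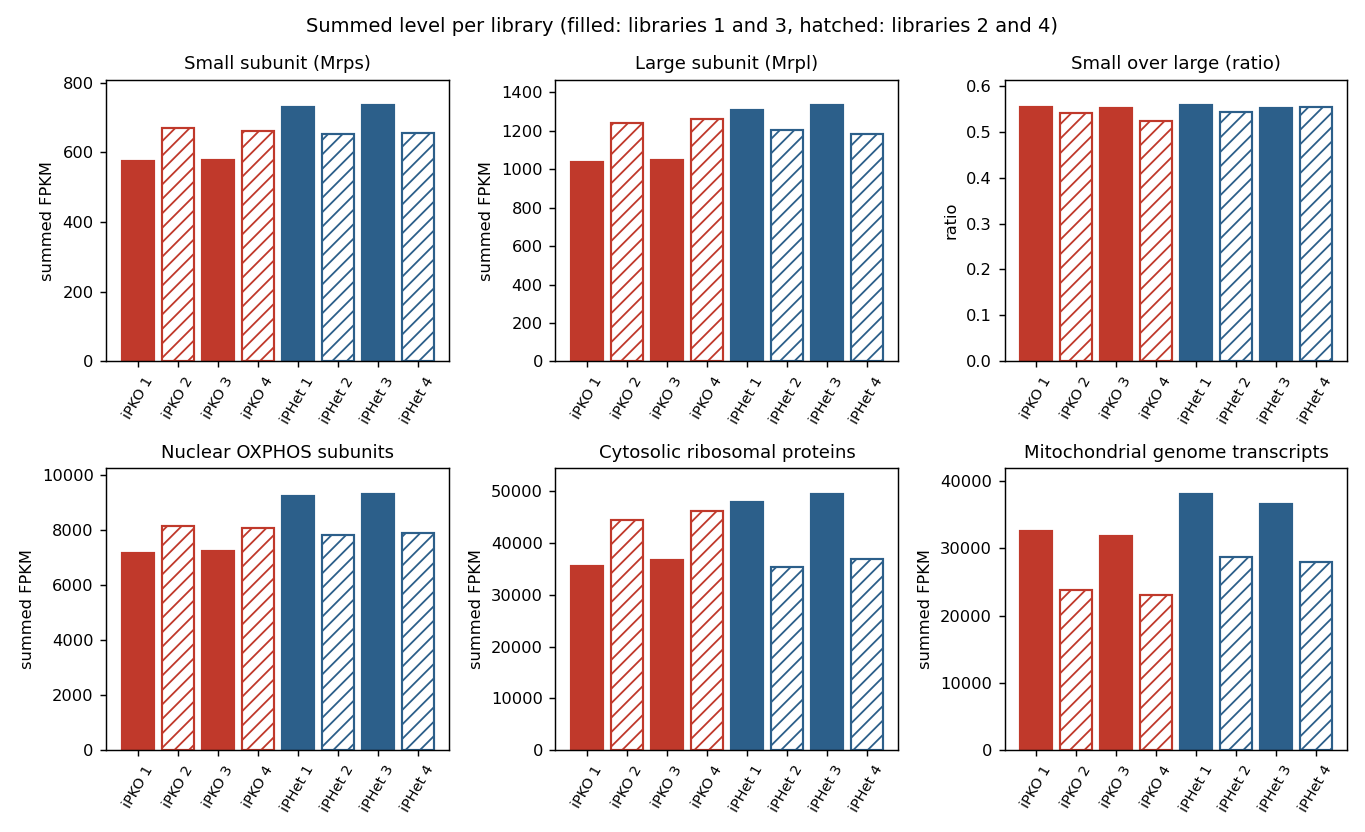
Bars give, per library, the summed FPKM of small and large subunit genes, their ratio, and the summed FPKM of nuclear OXPHOS subunits, cytosolic ribosomal proteins and mitochondrial genome transcripts, with iPKO left of iPHet and libraries 2 and 4 hatched. The small and large subunit sums are lowest in iPKO 1 and 3 and highest in iPHet 1 and 3, the ratio stays between 0.522 and 0.557, and the mitochondrial genome transcripts are higher in libraries 1 and 3 of both genotypes.

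Fitted within each pair, the genes gave different pictures. In libraries 1 and 3, 19 of 28 small subunit genes were called lower and 1 higher, and 29 of 47 large subunit genes were called lower and 0 higher, while 27.3% of all tested genes were called lower and 18% higher. The medians there were -0.31 in the small and -0.35 in the large subunit, against -0.06 over all tested genes. In libraries 2 and 4, 4 small subunit genes were called lower and 5 higher, and 6 large subunit genes were called lower and 14 higher, while 22.5% of all tested genes were called lower and 17.7% higher. The medians there were 0.10 in the small and 0.02 in the large subunit, against -0.03 over all tested genes. These fits rest on 2 libraries per genotype that resemble each other closely, so their p-values compare those libraries.

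The difference between the 2 changes was tested in 1 model of all 8 libraries, with genotype, library pair and their interaction, and the split into pairs was taken from these data. The error of this model is the spread between libraries of a pair, which resemble each other closely. Its p-values, too, therefore compare those libraries only. The change was more negative in libraries 1 and 3 in 44 of 75 members (15 small and 29 large subunit genes; limma adjusted p under 0.05 for each) and more positive in none of them at that threshold. Over all tested genes 15.6% were called more negative and 12.9% more positive. The median of this difference was -0.40 over the members and -0.01 over all tested genes. Of the 75 members 67 had a more negative change in libraries 1 and 3, against 6391 of the 12462 tested genes.

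In 11 members the pairs were called in opposite directions, lower in libraries 1 and 3 and higher in libraries 2 and 4, as in 2.83% of the genes tested in both. These were Mrps12, Mrps16, Mrps18c, Mrps31, Mrpl14, Mrpl15, Mrpl21, Mrpl27, Mrpl40, Mrpl43 and Mrpl46, named after their values were seen. Mrps12, the counterpart of bacterial S12 in the decoding centre, had 39.0, 51.9, 43.4 and 64.2 FPKM in iPKO libraries 1 to 4, against 70.0, 37.6, 74.0 and 42.7 FPKM in iPHet libraries 1 to 4. The iPHet libraries were far apart by pair, and the log2 change was -0.79 in libraries 1 and 3 and 0.52 in libraries 2 and 4. Mrps16, the counterpart of bacterial S16, had the most negative interaction (-1.4 ± 0.21, SE, limma adjusted p = 0.00659), with log2 changes of -0.79 and 0.61 in the first and the second pair.

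Among the abundant large subunit genes, Mrpl15, the counterpart of bacterial L15, had 42.5, 58.5, 44.0 and 59.7 FPKM in iPKO libraries 1 to 4, against 48.0, 48.1, 49.9 and 48.4 FPKM in iPHet libraries 1 to 4. Here the iPHet libraries were alike and the iPKO libraries were split by pair. Mrpl43, a mitochondria-specific protein whose promoter is shown above, had 52.0, 55.4, 51.5 and 55.2 FPKM in iPKO libraries 1 to 4, against 58.4, 44.7, 56.2 and 45.4 FPKM in iPHet libraries 1 to 4. In this gene it was the iPHet libraries that were split. Over all 8 libraries neither was called, with log2 changes of 0.06 for Mrpl15 and 0.07 for Mrpl43.

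Of the 75 members 7 were called lower in both pairs, 4 of the small and 3 of the large subunit, against 11.7% of all genes tested in both pairs. They were Mrps21, Mrps24, Mrps25 and Mrps5 in the small subunit and Mrpl10, Mrpl41 and Mrpl49 in the large subunit, of which Mrpl41 was named after its values were seen. Mrpl41 was not called over all 8 libraries (limma adjusted p = 0.0996), and its adjusted p was 0.0189 with the replicate block.

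**Figure D4:**
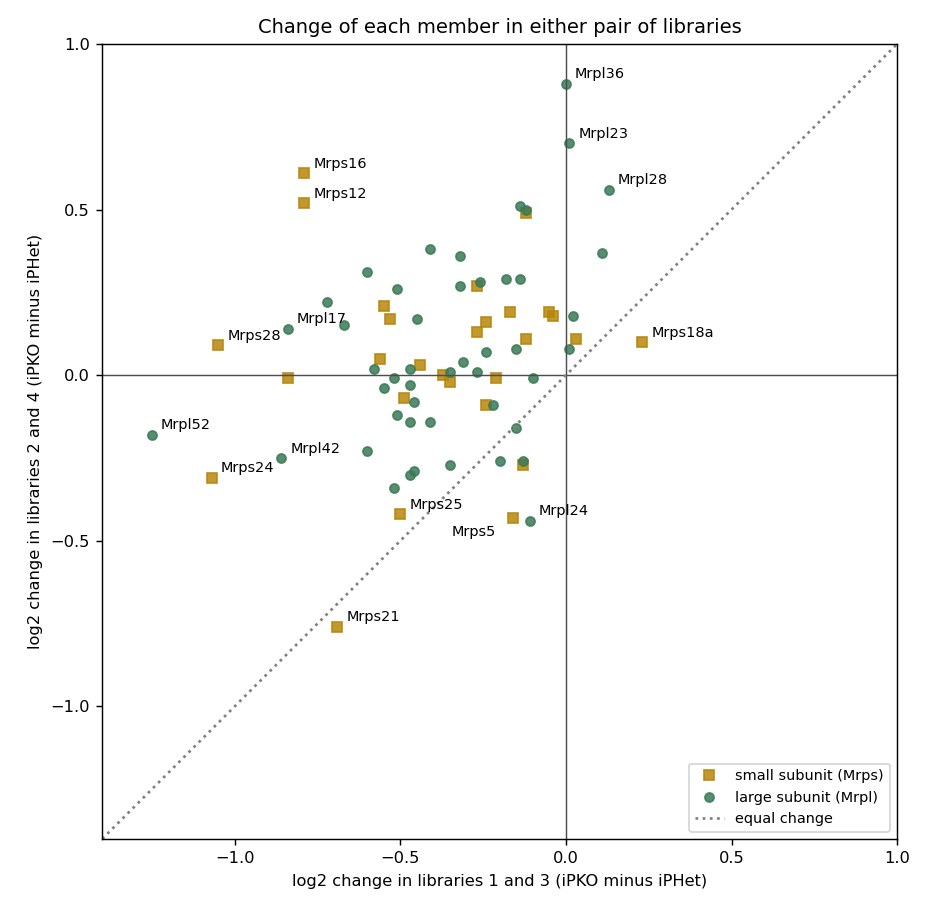
Each point is 1 member, with its log2 change (iPKO minus iPHet, log2(FPKM + 1) scale) in libraries 1 and 3 on the x axis and in libraries 2 and 4 on the y axis, squares for small and circles for large subunit genes, and a dotted line where both changes are equal. Of 75 points 67 lie above the line, where 6391 of all 12462 tested genes, not drawn, would also lie. Mrps16 and Mrps12 reach -0.79 on the x axis with 0.61 and 0.52 on the y axis, and Mrps21 lies near the line at -0.69 and -0.76.

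Grouped by ancestry, genes with a bacterial counterpart and mitochondria-specific genes had like counts. Of 46 genes with a bacterial counterpart 7 fell, with a median log2 change of -0.17, and of 28 mitochondria-specific genes 5 fell, with a median of -0.15. That is 15.2% and 17.9%, against 9.53% of all tested genes called lower. By place in the particle, 1 of 3 stalk genes, 2 of 7 central protuberance genes, 1 of 5 genes along the mRNA and decoding path, 0 of 6 exit tunnel genes and 0 of 4 core genes fell. These groups are too small to set against the share over all tested genes. The stalk genes were Mrpl10, Mrpl11 and Mrpl12. Mrpl10, which anchors Mrpl12, had 39.6, 38.6, 41.6 and 41.8 FPKM in iPKO libraries 1 to 4, against 46.4, 47.4, 47.2 and 49.5 FPKM in iPHet libraries 1 to 4, and the gap was alike in both pairs. Mrpl12, the counterpart of the factor-recruiting bacterial protein L7/L12, had 27.6, 37.3, 28.9 and 40.0 FPKM in iPKO libraries 1 to 4, against 40.2, 41.7, 41.0 and 42.6 FPKM in iPHet libraries 1 to 4. Mrpl12 did not pass (limma adjusted p = 0.113), and its iPKO libraries were split by pair where its iPHet libraries were alike.

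Some members differ in the assembled particle from what their symbols say. Mrps18a and Mrps30 are large subunit proteins by structure, and Mrps36 is a component of the 2-oxoglutarate dehydrogenase complex. By structure 3 of 25 small and 9 of 49 large subunit genes fell, with medians of -0.17 and -0.16. The Mrps18 paralogs, related in sequence to bacterial S18, differed among themselves. Mrps18c, which holds the place of S18, averaged 15 ± 2.31 FPKM in iPKO cells and 17.0 ± 3.16 FPKM in iPHet cells (SD, n = 4 each), with log2 changes of -0.55 in libraries 1 and 3 and 0.21 in libraries 2 and 4. Mrps18b averaged 37.8 ± 5.64 FPKM in iPKO cells and 38.7 ± 1.14 FPKM in iPHet cells. Mrps18a had 25.4, 24.4, 26.2 and 25.8 FPKM in iPKO libraries 1 to 4, against 20.9, 23.6, 22.9 and 22.8 FPKM in iPHet libraries 1 to 4, so that its iPKO libraries were all above its iPHet libraries. None of the 3 was called, and Mrps18a had an adjusted p of 0.0863 (limma). Mrps30 averaged 22.3 ± 2.22 FPKM in iPKO cells and 24.9 ± 1.43 FPKM in iPHet cells, and Mrps36, which has pseudogene rows in the files, 2.70 ± 0.811 FPKM in iPKO cells and 3.25 ± 0.916 FPKM in iPHet cells (SD, n = 4 each).

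The members shared features that the choice by symbol did not use. They lay on 17 chromosomes, with at most 9 on any of them (chromosome 11). A protein-coding neighbour read in the opposite direction, away from the member, started within 1000 bases upstream of 17 of 74 members, or 23.0%, against 10.9% of 11171 tested protein-coding genes. Opposite genes whose start regions overlap, such as Mrpl46 and Mrps11, were not counted in either share. Among these neighbours Sars2, a mitochondrial tRNA synthetase gene, started 172 bases from Mrps12, and Fau, which encodes a cytosolic ribosomal protein, started 59 bases from Mrpl49. Member transcripts were short, and 37 of 74 fell into the shortest of 5 equal length classes of tested protein-coding genes (66 to 1150 bases of exon). Over all tested protein-coding genes that class had a median log2 change of -0.16 in libraries 1 and 3 and -0.01 in libraries 2 and 4, while the longest class had 0.03 and -0.08. The Spearman correlation of exon length with the interaction was 0.237 over 74 members and 0.25 over 11155 tested protein-coding genes, as a description across genes that share the same libraries. The part of transcript length in the members' values was not tested.

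Other genes of mitochondrial translation were mixed. Among 7 further mitoribosomal proteins with other symbols none was called, with a median of -0.15. Ptcd3, a small subunit protein, averaged 37.1 ± 2.31 FPKM in iPKO cells and 43.1 ± 2.99 FPKM in iPHet cells (SD, n = 4 each, limma adjusted p = 0.0839). Aurkaip1 had a log2 change of -0.27 and Mrp63 one of 0.21 (limma adjusted p = 0.104 for each). Among 27 assembly factors 7 fell and 2 rose, with a median of -0.08, while 9.53% of all tested genes were called lower and 6.3% higher. Rbfa, which matures the small subunit RNA, fell to 8.80 ± 0.317 FPKM in iPKO cells, against 12.9 ± 1.12 FPKM in iPHet cells (SD, n = 4 each, log2 change -0.50, limma adjusted p = 0.00386). Mettl15, a methyltransferase of the small subunit RNA, fell by 0.60 on the log2 scale (limma adjusted p = 0.00573), and Mpv17l2, an inner membrane protein tied to ribosome assembly, fell by 0.64 (limma adjusted p = 0.00869). These 3 had changes of -0.37 to -0.72 in each pair of libraries.

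Of 14 translation factors 1 rose and 1 fell. Over all tested genes 9.53% were called lower and 6.3% higher, and the lists of this paragraph are too small to set against those shares. Mtfmt, which formylates the initiator methionyl-tRNA, averaged 22.9 ± 2.82 FPKM in iPKO cells and 11.5 ± 1.15 FPKM in iPHet cells (SD, n = 4 each, log2 change 0.93, limma adjusted p = 0.00141). Pdf, which removes that formyl group from new chains, averaged 4.40 ± 1.01 FPKM in iPKO cells and 7.70 ± 1.34 FPKM in iPHet cells (SD, n = 4 each, log2 change -0.69, limma adjusted p = 0.0193). The log2 change of Pdf was -0.38 in libraries 1 and 3 and -1.01 in libraries 2 and 4. Mtrf1l, a release factor, had a log2 change of 0.60 that did not pass (limma adjusted p = 0.0510), with 0.24 in libraries 1 and 3 and 0.96 in libraries 2 and 4. Of 17 mitochondrial tRNA synthetases only Hars2 was called, with 29.1 ± 2.11 FPKM in iPKO cells and 20.0 ± 1.77 FPKM in iPHet cells (SD, n = 4 each, limma adjusted p = 0.00523). None of 15 genes of mitochondrial transcription and RNA processing was called, and the smallest adjusted p was 0.131, for Fastkd5 (limma). Of 11 mitochondrial chaperones and proteases Yme1l1, an inner membrane protease, rose (log2 change 0.58, limma adjusted p = 0.00370) and Lonp1, the matrix protease, fell (-0.30, limma adjusted p = 0.00937).

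RNA, and not protein, was also measured for the mitochondrial genome, for nuclear OXPHOS subunits and for cytosolic ribosomal proteins. Of 15 transcripts of the mitochondrial genome mt-Nd4l, mt-Nd2 and mt-Nd1, all encoding complex I subunits, fell, while 9.53% of all tested genes were called lower. The list had medians of -0.36 in libraries 1 and 3 and -0.37 in libraries 2 and 4. Of 73 nuclear genes for OXPHOS subunits 7 fell and none rose, with a median of -0.17, a share close to the 9.53% of all tested genes called lower, among them the complex I genes Ndufv3 (log2 change -0.61, limma adjusted p = 0.00195), Ndufb7 (-0.51, limma adjusted p = 0.00969) and Ndufs7 (-0.38, limma adjusted p = 0.0138). In libraries 1 and 3, 54 of them were called lower and 0 higher, and in libraries 2 and 4, 8 were called lower and 25 higher. Of 77 cytosolic ribosomal protein genes none was called over all 8 libraries, with a median of -0.04, while 69 were called lower in libraries 1 and 3 (median -0.47) and 62 higher in libraries 2 and 4 (median 0.37). Over all tested genes 27.3% were called lower and 18% higher in libraries 1 and 3, and 22.5% lower and 17.7% higher in libraries 2 and 4. The OXPHOS list (medians -0.43 and 0.08) and the cytosolic ribosomal protein list thus had medians of opposite sign in the pairs of libraries. So did the small subunit genes (-0.31 and 0.10). The large subunit median was -0.35 in the first pair and only 0.02 in the second. The mitochondrial genome list had like medians in both. All these lists were measured in the same libraries.

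Of 12 regulators of nuclear genes for mitochondria 2 fell and none rose, a list too small to set against the 9.53% of all tested genes called lower. Nrf1, which binds the NRF1 letters searched above, fell to 36.8 ± 5.45 FPKM in iPKO cells, against 51.5 ± 2.09 FPKM in iPHet cells (SD, n = 4 each, log2 change -0.48, limma adjusted p = 0.0174). Myc, a transcription factor with broad growth targets, fell to 1.02 ± 0.401 FPKM in iPKO cells, against 2.40 ± 0.365 FPKM in iPHet cells (SD, n = 4 each, limma adjusted p = 0.0164). Gabpb1, a subunit of the ETS-site binder GABP, averaged 46.0 ± 10.8 FPKM in iPKO cells and 31.4 ± 2.06 FPKM in iPHet cells and was not called (SD, n = 4 each, limma adjusted p = 0.0626). Any link between these factors and the members was not tested.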

How the data were processed

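RNA of 8 libraries was prepared with a TruSeq RNA kit and sequenced as paired reads, per the labels' protocols. The authors deposited FPKM per gene and library with confidence bounds, per the file headers. Trimmomatic and build mm10 are named in the submitters' processing notes, with the aligner and the FPKM program not given in the sources used here. Each file held 39013 rows for 38991 identifiers, and 19 identifiers with several loci were summed. Values were log2(FPKM + 1), which understates changes of low genes. Genes averaging 1 FPKM or more in at least 1 genotype were fitted with limma 3.58.1 (R 4.3.3, package data.table, version 1.17.8), with an intensity trend, no covariate and Benjamini-Hochberg adjustment over all 12462 genes. The model was tried on simulated data with independent noise in each library. Those data lacked the split into library pairs, so they do not show how the calls behave under it.

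Members and lists were chosen with earlier results of these data known. Named genes were, per subunit, up to 6 called genes with the largest fall, up to 4 with the largest rise and the 3 most abundant. Also named were, per subunit, the 2 with the largest change not called. The Mrps18 paralogs, Mrps30 and Mrps36, Prmt5, and up to 3 of smallest p per list were added. Outside this rule, Mrpl10, Mrpl33 and Mrpl55 were named as the other called large subunit genes, and Mrpl11 and Mrpl12 as stalk genes. Same-numbered libraries of the genotypes deviated together over all genes (correlations of 0.104 to 0.204). The alternative fit with a replicate block therefore matched libraries by number, which the labels do not state, and the main fit did not. Differently numbered libraries of the same odd or even kind also correlated (iPKO 4 and iPHet 2 at 0.124), so the number and the odd or even split cannot be told apart here. Over the members the correlations of same-numbered libraries were -0.0969 to 0.09, so matching by number is not seen there. Gene types, lengths and strands came from GENCODE vM21 and promoters from RefSeq. Alternatives covered pseudocount, filter, scaling, library pairs, block and single libraries left out.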

Additional observations from a re-analysis of the deposited data

How the results depend on the processing

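Within libraries 1 and 3 the counts were 29 large and 19 small subunit genes lower, 1 small subunit gene higher, a large subunit median of -0.35 and 5700 calls over all genes. Within libraries 2 and 4 they were 6 large and 4 small subunit genes lower, and 14 large and 5 small subunit genes higher. The medians there were 0.02 (large) and 0.10 (small), with 4932 calls over all genes. Over all tested genes 22.5% were called lower and 17.7% higher there, against 27.3% and 18% in libraries 1 and 3. Quantile normalization left 4 large subunit genes lower and 1 higher, and median-of-ratios scaling left 3 lower and 1 higher. Averaging the libraries of a pair gave 0 large and 0 small subunit genes lower and 7 calls over all genes, with an odd and even term 0, 0 and 6, and with that term in protein-coding genes 0, 0 and 198. An estimated correlation within pairs gave 0, 0 and 52. The replicate block gave 8 large and 4 small subunit genes lower and 3427 calls over all genes, and it changed the calls of Mrpl52, Mrpl55, Mrpl41 and Mrps5 and of no other member. Leaving out 1 library at a time gave 2 to 6 large and 3 to 3 small subunit genes lower, 0 to 2 large and 0 to 0 small subunit genes higher, medians of -0.21 to -0.12 (large) and -0.21 to -0.08 (small), and 1264 to 1416 calls over all genes. Among genes chosen by the naming rule, the signs of Mrpl15 (-0.18) and Mrpl43 (-0.14) turned in libraries 1 and 3. Those of Mrps18c (0.21) and Mrps12 (0.52) turned in libraries 2 and 4. Mrps16, named after its values were seen, went from -0.09 over all libraries to 0.61 in libraries 2 and 4. With no call in either fit, Mrps28 (0.09) and Mrps18b (0.16) also had the other sign in libraries 2 and 4, and Mrps18b was at 0.01 under quantile normalization. The cause was not tested. With 2 averages per genotype few calls were made over all genes, and without counts the depth behind a value is unknown.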
